A study of Mus musculus with 9 samples.

Results

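The genes of glucose breakdown were followed in 3 populations of phagocytes from the mouse peritoneal wall. The set held 34 genes chosen by symbol: glucose transporters, the enzymes of glycolysis, lactate dehydrogenases and lactate transporters, regulators of the pathway, hypoxia genes and the enzymes of the pentose phosphate pathway. They were chosen with earlier results of these data known, so counts beside all genes describe the set and do not test it. All 34 were found among the 28764 gene rows of the expression table. A filter of at least 1 TPM (a share of all transcripts, corrected for transcript length) in at least 3 of 9 libraries kept 30 of them, among 10136 genes in all. Slc2a3, Aldoc, Eno2 and Egln3 did not reach it and are given as levels only. Each member kept reached 1 TPM in libraries of more than 1 population. However, Slc2a1, Slc16a3 and Pfkl would not have passed the filter without the CCR2-RFP libraries, where their means were highest. Likewise, Ldhb would not have passed without the CX3CR1-GFP libraries, where its mean was highest.

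All mice were F1 animals with the genotype Cx3cr1gfp/+ Ccr2rfp/+, so that every library, whatever its population, came from cells with 1 reporter allele at each locus. They had received 50 µg of Dextran-Cascade Blue into a vein the day before and were perfused, and the peritoneal wall was digested with Liberase for 20 minutes. Ages are not given in the labels. CD11b+ Ly6G- cells were sorted into 3 groups. Double-negative cells were Dextran+ MHCII- and carried neither reporter signal, made up 85 to 90% of the gate, and the labels call them the majority of sessile resident macrophages. CCR2-RFP cells were MHCII+ with the red reporter, made up 10 to 15%, and the labels call them migratory monocytes of the tissue. CX3CR1-GFP cells were MHCII+ with the green reporter, made up 0.5 to 1.5%, and bear the label of sessile resident macrophages too. Each group had 3 libraries, named here by their sort labels 1, 2A and 2B, made from 1 ng of RNA. The series design describes 3 mice carried through as 3 replicates per group, and the p-values measure the spread between these sorted samples. For 6 of the 9 samples a free-text description names the other reporter population, while title, source, cell type and column heading name the same population and were used.

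Glycolysis converts glucose to pyruvate and yields ATP without oxygen, and lactate dehydrogenase turns pyruvate into lactate, which leaves the cell through monocarboxylate transporters. The pentose phosphate pathway branches off at glucose-6-phosphate and supplies NADPH and ribose. In macrophages and monocytes many of these genes rise after inflammatory activation, and several are classic targets of the hypoxia-inducible factor HIF-1, whose oxygen-regulated subunit is encoded by Hif1a.

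The labelled identities were checked against marker genes. Ccr2 was 95.4 to 115 TPM in CCR2-RFP libraries, 1.65 to 4.62 in double-negative and 4.29 to 6.68 in CX3CR1-GFP libraries, and Cx3cr1 was listed above 0 only in the CX3CR1-GFP libraries. Macrophage defining markers, 13 genes, summed to 2744 to 3039 TPM in double-negative, 957 to 1245 in CCR2-RFP and 2042 to 2333 in CX3CR1-GFP libraries. The 9 monocyte defining markers summed to 1261 to 1672, 4169 to 5231 and 1083 to 1237 TPM. Ly6c2, a defining marker of circulating inflammatory monocytes, was at or below 1.04 TPM in all CCR2-RFP libraries, and dendritic cell markers were highest there (113 to 159 TPM summed, against 37.6 to 74.2 and 21.7 to 28.7). The listed values summed to 278579 to 382828 TPM per library, so the table holds part of the features behind the TPM, and the sequencing depth is unknown.

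Sort 2A stood apart in RNA of skeletal muscle. The 7 muscle markers (Acta1, Myh1, Myh4, Ckm, Tnnt3, Mylpf and Mb) summed to 818 TPM in CCR2-RFP 2A and to 1390 TPM in CX3CR1-GFP 2A. They summed to 39.0 and 33.8 TPM in the other two CCR2-RFP libraries, to 239 and 170 TPM in the other two CX3CR1-GFP libraries, and to 228, 296 and 241 TPM in double-negative libraries. All 7 were tested, 0 of 7 were called in any comparison, and none was at 0 in all 9 libraries. Muscle uses the glycolytic enzymes heavily. Member counts are therefore also given without the 3 libraries of sort 2A, and single values where the call changed or CX3CR1-GFP 2A stood apart. In sorts 1 and 2B alone, CCR2-RFP libraries held less muscle marker RNA than the others.

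Promoter windows are shown for 4 members to let the letters searched be seen in place: textbook HIF-1 targets of the glycolysis, lactate and regulator groups, among them 1 that was lower. They were chosen with their values and matches known, and Ldha has the most matches of the 4. The windows are from RefSeq (GRCm38.p6), run 5′ to 3′ from 250 bases before to 50 after a transcript start, and capitals mark the letters ACGTG or GCGTG on either strand (CACGT or CACGC when read on the strand shown). Ldha (lactate dehydrogenase A) is shown at chr7:46845554-46845853, plus strand, Pgk1 (phosphoglycerate kinase) at chrX:106186850-106187149, plus strand, Slc16a3 (the lactate exporter MCT4) at chr11:120948817-120949116, plus strand, and Pfkfb3 at chr2:11502041-11502340, minus strand. The first 3 were higher in CCR2-RFP relative to double-negative cells and Pfkfb3 was lower. Ldha and Pfkfb3 have 2 windows each, and the one with more matches is shown.
Ldha: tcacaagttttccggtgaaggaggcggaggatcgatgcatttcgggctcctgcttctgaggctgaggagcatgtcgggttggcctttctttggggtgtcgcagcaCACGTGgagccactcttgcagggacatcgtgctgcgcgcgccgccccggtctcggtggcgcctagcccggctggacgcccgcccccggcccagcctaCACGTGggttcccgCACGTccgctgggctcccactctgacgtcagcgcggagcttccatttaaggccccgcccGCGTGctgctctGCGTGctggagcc
Pgk1: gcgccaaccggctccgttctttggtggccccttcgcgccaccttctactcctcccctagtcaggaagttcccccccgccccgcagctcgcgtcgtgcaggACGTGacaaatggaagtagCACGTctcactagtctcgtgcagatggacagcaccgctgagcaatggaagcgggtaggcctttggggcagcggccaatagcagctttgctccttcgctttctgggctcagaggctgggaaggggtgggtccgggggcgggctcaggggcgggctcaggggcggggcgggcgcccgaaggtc
Slc16a3: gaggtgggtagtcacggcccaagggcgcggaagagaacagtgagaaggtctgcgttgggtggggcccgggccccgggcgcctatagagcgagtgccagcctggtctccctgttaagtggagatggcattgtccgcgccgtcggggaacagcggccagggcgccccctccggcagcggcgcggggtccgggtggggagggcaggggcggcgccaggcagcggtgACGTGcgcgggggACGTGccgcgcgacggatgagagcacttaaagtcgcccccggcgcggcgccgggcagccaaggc
Pfkfb3: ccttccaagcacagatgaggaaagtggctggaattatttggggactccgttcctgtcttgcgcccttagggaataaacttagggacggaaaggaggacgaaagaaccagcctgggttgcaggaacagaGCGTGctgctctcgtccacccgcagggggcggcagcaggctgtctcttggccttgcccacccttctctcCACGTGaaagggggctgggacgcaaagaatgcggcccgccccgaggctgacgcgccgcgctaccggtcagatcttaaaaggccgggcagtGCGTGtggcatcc
All 4 windows hold ACGTG. The windows of Ldha and Pfkfb3 also hold CACGTG, which reads the same on both strands, and Ldha has a further ACGTG outside it. RefSeq windows matched 33 of the 34 members, with 47 windows. ACGTG was in 48.9% of member windows against 19.6% of all 32851 windows, and GCGTG in 57.4% against 32.4%. CACGTG, which contains ACGTG, was in 12.8% against 7.2%. By gene, ACGTG was present for 11 of the 18 members higher in CCR2-RFP cells, for 2 of the 2 that were lower and for 5 of the 10 that did not pass. GCGTG was present for 11 of 18, 1 of 2 and 9 of 10, and CACGTG for 2 of 18, 1 of 2 and 3 of 10. A match describes the letters and not a bound site.

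In CCR2-RFP against double-negative cells, 18 of the 34 members were higher, 2 were lower (Hk3 and Pfkfb3), 10 did not pass and 4 were not tested. The test was limma's moderated test on log2(TPM + 1) with p adjusted over all 10136 genes, and a gene was called at an adjusted p below 0.05. Of all genes tested, 14.9% were called higher and 9.88% lower. The median log2 fold change of the 30 members tested was 1.06, against 0.09 over all genes, and over all 34 members the median difference of log2 means was 0.93. Across the 18 higher members the ratio of mean TPM ran from 2.04 (Hk1) to 21.6 (Slc2a1), with a median of 2.73. Libraries did not overlap between the groups for any of the 20 members called, and such non-overlap was common. Of the 30 members tested, called or not, 20 were wholly higher and 3 wholly lower. Of all 10136 genes tested, 2613 were wholly higher and 1711 wholly lower. Within a sort label, 21 of the 34 members were above the double-negative library in all 3 sorts and 3 were below it in all 3. The within-sort count was not made over all genes. Without sort 2A, 27 members could be tested, of which 16 were higher and 2 lower, against 9.82% and 7.93% of all genes. Among members not given without sort 2A further on, the log2 fold changes were then 1.91 for Slc2a1 (adjusted p = 0.0166), 1.19 for Gpi1 (0.00412), 2.14 for Pfkp (0.00143), 1.36 for Pgk1 (0.00445), 1.69 for Pgam1 (0.00208) and 1.25 for Eno1 (0.00315). They were 1.37 for Pdk3 (0.0131), 1.17 for Hif1a (0.0175), 1.13 for Pgd (0.0246), 1.47 for Tkt (0.00381) and 1.31 for Taldo1 (0.0384), all on the side they have with all libraries.

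In CX3CR1-GFP against double-negative cells no member was called by limma, at a background of 1.16% of genes higher, 1.61% lower and 2.77% in either direction, and 5 of 30 had an unadjusted p below 0.05 (Slc2a1 and Ldhb upward, Eno1, G6pdx and Pfkfb3 downward). Over all genes 15.0% had such a p, and Ldhb would not have passed the filter without the CX3CR1-GFP libraries. The members' median log2 fold change was 0.06, against -0.03 for all genes. Without sort 2A, 0 of 27 members tested were higher and 0 lower, at 0.354% and 0.591% of all genes. The members' median was then -0.09, against -0.06 for all genes, and without CX3CR1-GFP 2A alone -0.14 against -0.05. In CX3CR1-GFP against CCR2-RFP cells 17 of the 34 members were lower, 1 was higher (Pfkfb3), 12 did not pass and 4 were not tested, at a background of 17.3% lower and 8.96% higher. The median was -0.92 against -0.11. The 3 comparisons share libraries pairwise, so these counts are not independent of each other. Any difference among the 3 populations was called for 20 members by limma's moderated F test, against 27.4% of all genes. In bulk RNA, fewer cells with a transcript and less of it per cell cannot be told apart.

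TPM values are shares of a library, and other abundant RNA differed between the populations. Ribosomal protein mRNAs summed to 15680 to 17529 TPM in CCR2-RFP libraries against 8180 to 10751 in double-negative and 7918 to 8418 in CX3CR1-GFP libraries, and mitochondrial mRNAs to 7491 to 10259 against 12898 to 19514 and 8914 to 15396. Every library was then rescaled to the same listed sum without these genes, Siglece (61107 to 123880 TPM) and the ribosomal RNA row (14240 to 28075 TPM). That also levelled the listed sums, which were 278579 to 301604 TPM in CX3CR1-GFP, 324050 to 357087 in double-negative and 356787 to 382828 in CCR2-RFP libraries. The median over all genes moved from 0.09 to -0.07 in CCR2-RFP against double-negative cells. It moved from -0.11 to 0.13 in CX3CR1-GFP against CCR2-RFP cells. The part of each change in these shifts was not tested. The members' medians moved to 0.86 and -0.64. Of the calls over all genes, 60.2% were higher in the first comparison and 44.2% after rescaling, and in the last 34.1% and 59.4%. In CX3CR1-GFP against double-negative cells these shares were 42.0% and 54.8%. After rescaling 14 members were higher in CCR2-RFP relative to double-negative cells, at 9.81% of all genes, with Hk1, Tpi1, Pkm and Taldo1 lost. In the last comparison 11 were lower, at 9.72% of all genes, with Hk1, Gpi1, Tpi1, Pkm, Ldha and Taldo1 lost. With quantile normalization 15 were higher (10.9% of all genes; Tpi1, Pkm and Taldo1 lost) and 12 lower (11.4%; Gpi1, Tpi1, Pkm, Ldha and Taldo1 lost).

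**Figure D1:**
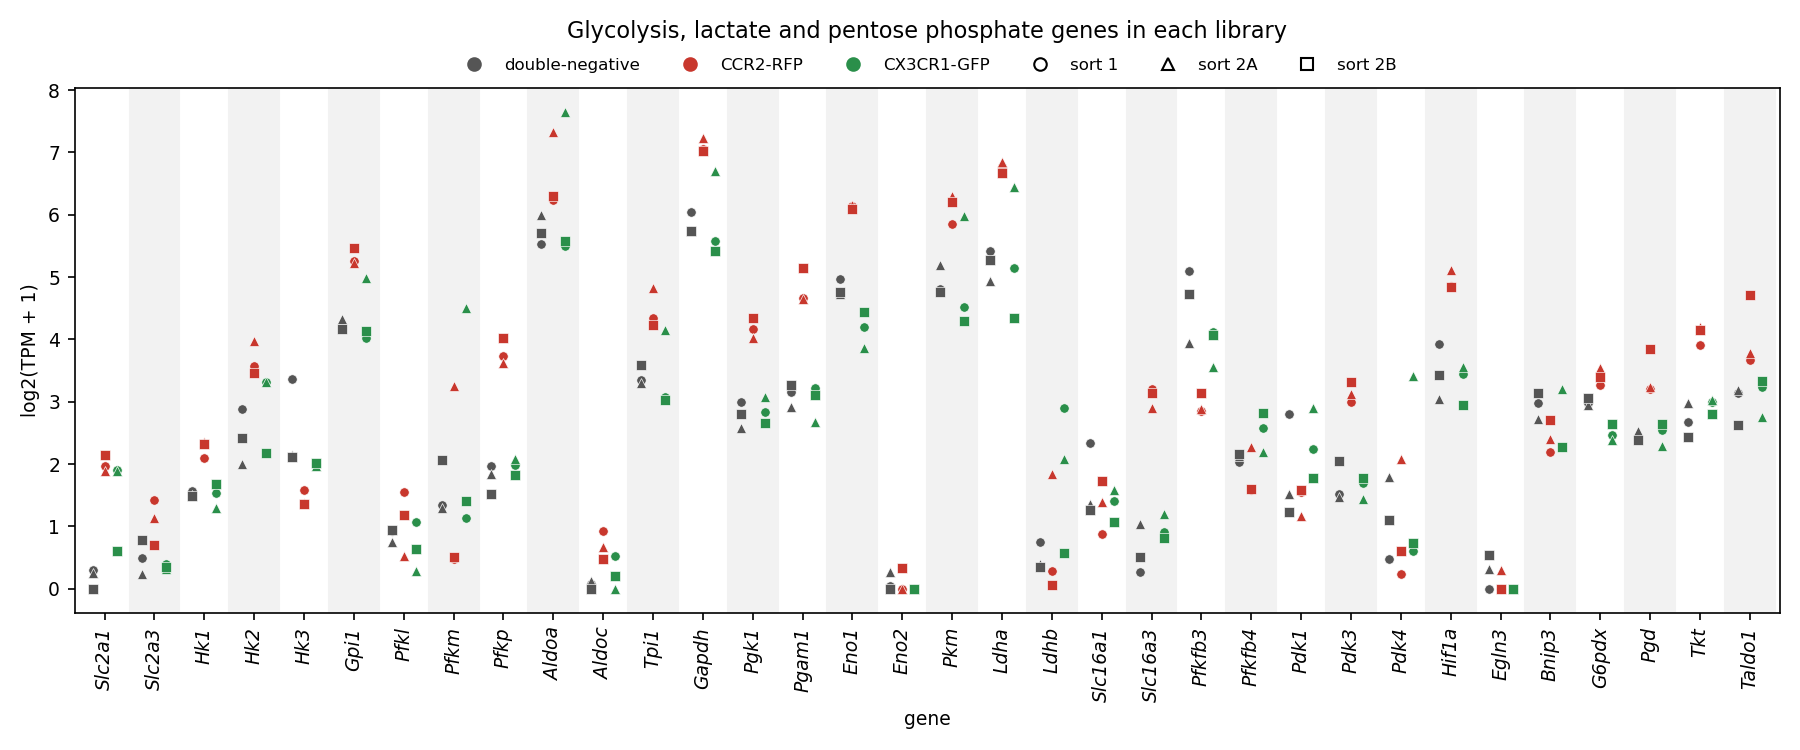
Level of each of the 34 members in each library (vertical axis, log2 of TPM + 1) by gene in pathway order (horizontal axis). Colour gives the population and marker shape the sort label. The CCR2-RFP libraries lie above the others for most enzymes from Pfkp to Ldha and below them for Hk3 and Pfkfb3, and CX3CR1-GFP 2A stands apart for Aldoa (199 TPM), Pfkm (21.6 TPM) and Pdk4 (9.70 TPM).

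The table's highest members were the same few in each population. Gapdh, Aldoa and Ldha took the first 3 places by mean TPM in all 3 groups. Pfkfb3 ranked 6 of 34 in double-negative and 7 in CX3CR1-GFP cells but 19 in CCR2-RFP cells, and Slc2a1 ranked 32, 26 and 23 in double-negative, CX3CR1-GFP and CCR2-RFP cells. All 34 members together summed to 370, 325 and 328 TPM in the double-negative libraries of sorts 1, 2A and 2B, to 675, 838 and 729 TPM in CCR2-RFP, and to 299, 644 and 264 TPM in CX3CR1-GFP libraries. CX3CR1-GFP 2A lies apart from the other two libraries of its group and just below the lowest CCR2-RFP library. The set made up 0.0875 to 0.235% of the listed sum in a library.

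Slc2a1, the basal glucose transporter GLUT1 (chromosome 4, 119108711 to 119137983, GRCm38), was 0.227, 0.193 and 0 TPM in double-negative libraries of sorts 1, 2A and 2B, 2.92, 2.70 and 3.44 in CCR2-RFP and 2.76, 2.69 and 0.525 in CX3CR1-GFP libraries. All CCR2-RFP libraries were above all double-negative ones, and 1 CX3CR1-GFP library was low. The log2 fold change was 1.82 (SE 0.326, adjusted p = 0.00223) in CCR2-RFP and 1.28 (SE 0.326, adjusted p = 0.0752) in CX3CR1-GFP against double-negative cells. Without CX3CR1-GFP 2B, the low library, the second was 1.71 with adjusted p = 0.00523. Because every double-negative value was under 1 TPM, these folds on the log2(TPM + 1) scale understate the ratio of means. Slc2a3, the high-affinity transporter GLUT3, was 0.408, 0.180 and 0.726 TPM in double-negative, 1.68, 1.19 and 0.633 in CCR2-RFP and 0.319, 0.239 and 0.269 in CX3CR1-GFP libraries, and was not tested.

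The other sugar transporters, 12 listed and 5 tested, gave 1 higher and 1 lower gene in CCR2-RFP against double-negative cells, none in CX3CR1-GFP against double-negative cells (range of log2 fold change -0.28 to 0.08) and again 1 of each between CX3CR1-GFP and CCR2-RFP cells. Slc2a6, the lysosomal hexose transporter GLUT6, was 10.6, 14.3 and 13.2 TPM in CCR2-RFP libraries and 0.0581 to 0.465 in the 6 others (log2 fold change against double-negative 3.33, SE 0.211, adjusted p = 4.3e-06). It stood above Slc2a1 in every CCR2-RFP library. Slc37a2, a sugar phosphate exchanger of the endoplasmic reticulum, was 1.14, 0.531 and 1.52 TPM in CCR2-RFP libraries against 4.09, 4.32 and 4.70 in double-negative ones (-1.41, SE 0.228, adjusted p = 0.00118), and was 1.49 higher on the log2 scale in CX3CR1-GFP than in CCR2-RFP cells (SE 0.228, adjusted p = 0.000865).

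Hexokinases trap glucose in the cell by phosphorylation, and their make-up differed between the populations. Hk1 was 1.97, 1.82 and 1.802 TPM in double-negative libraries, 3.26, 4.14 and 3.98 in CCR2-RFP and 1.89, 1.46 and 2.20 in CX3CR1-GFP libraries. Hk2, the inducible form, was 6.36, 2.995 and 4.34 TPM in double-negative, 10.8, 14.7 and 10.1 in CCR2-RFP and 8.92, 8.92 and 3.50 in CX3CR1-GFP libraries. Hk3, the form of myeloid cells, was 9.26, 3.42 and 3.33 TPM in double-negative, 2.01, 1.61 and 1.57 in CCR2-RFP and 2.99, 2.90 and 3.06 in CX3CR1-GFP libraries. The first double-negative library was the highest of all 9 for Hk3, and all CCR2-RFP libraries were lowest. Against double-negative cells CCR2-RFP cells had log2 fold changes of 0.74 for Hk1 (SE 0.188, adjusted p = 0.0158), 1.24 for Hk2 (SE 0.336, adjusted p = 0.0214) and -1.10 for Hk3 (SE 0.309, adjusted p = 0.0257).

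Of the 3 hexokinases' summed TPM, Hk3 made up 52.6, 41.5 and 35.2% in double-negative libraries, 12.5, 7.85 and 10.0% in CCR2-RFP and 21.7, 21.8 and 34.9% in CX3CR1-GFP libraries. Hk2 made up 36.2, 36.3 and 45.8%, then 67.3, 72.0 and 64.5%, then 64.6, 67.2 and 40.0%. Hk2 was thus the main form in every CCR2-RFP and every CX3CR1-GFP library, and also in double-negative 2B. The shares of Hk3 in CCR2-RFP and double-negative libraries did not overlap. The call of Hk1 was lost without double-negative 2A (adjusted p = 0.0553), CCR2-RFP 2A (0.0592) or CCR2-RFP 2B (0.0544), Hk2 without double-negative 2A (0.0838), CCR2-RFP 2A (0.0774) or double-negative 2B (0.0600), and Hk3 without any 1 CCR2-RFP library (0.0509 to 0.0789). Without a filter on low values the adjusted p was 0.0703 for Hk2 and 0.0782 for Hk3. Without all of sort 2A their adjusted p were 0.11, 0.160 and 0.0654, with log2 fold changes of 0.68, 0.87 and -1.26. In CX3CR1-GFP against CCR2-RFP cells only Hk1 of the 3 was called (-0.75, SE 0.188, adjusted p = 0.0141), and that call was lost without CCR2-RFP 2A (adjusted p = 0.0521) and without sort 2A (0.140).

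**Figure D2:**
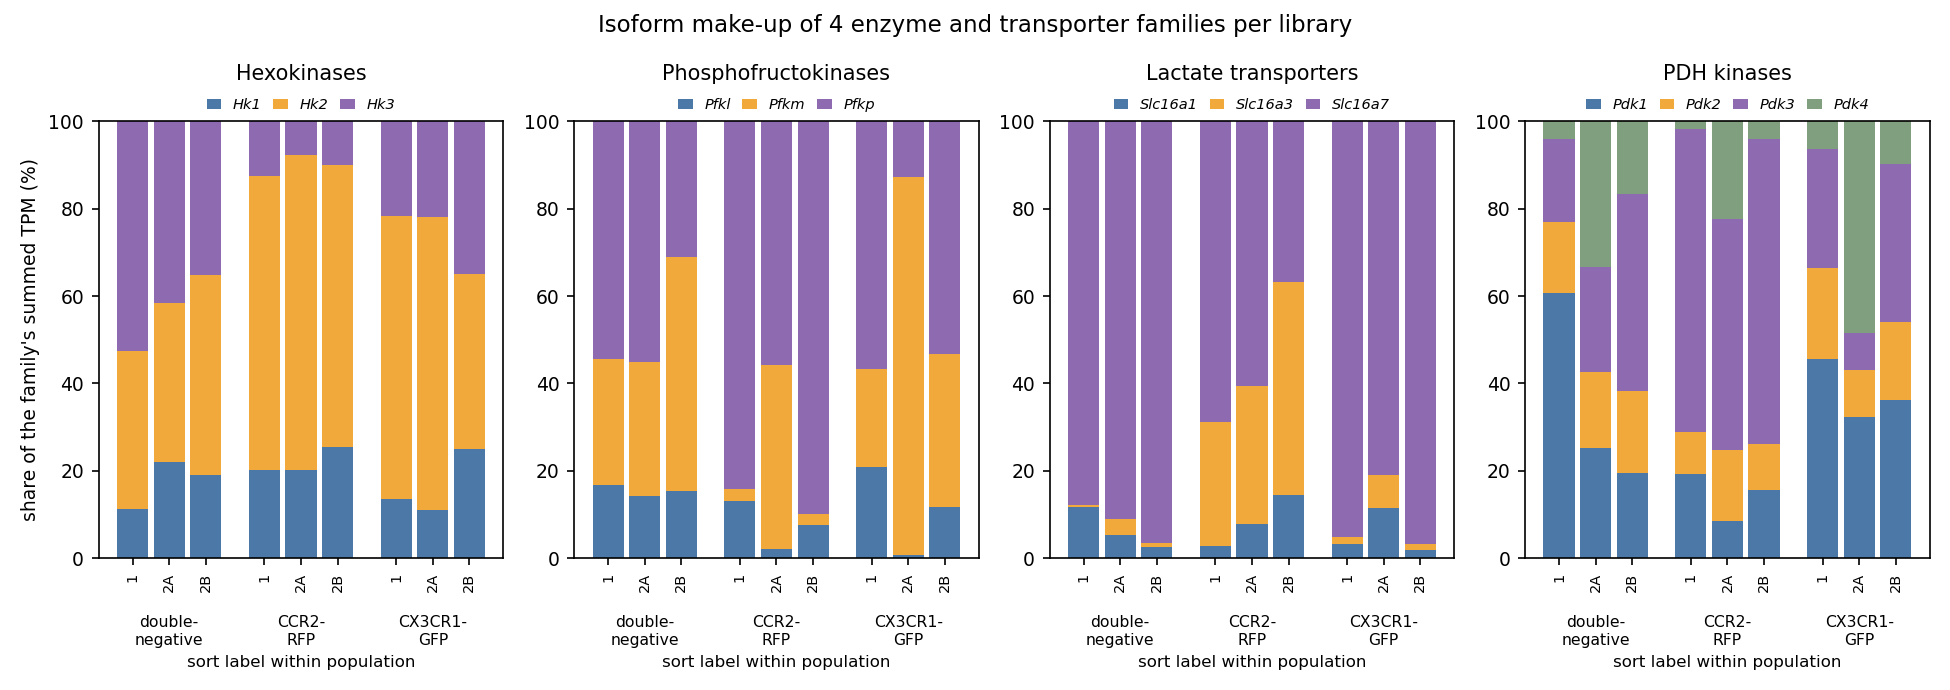
Share of each isoform in its family's summed TPM (vertical axis, percent) in each library (horizontal axis, sort labels within populations) for hexokinases, phosphofructokinases, lactate transporters and pyruvate dehydrogenase (PDH) kinases, with Slc16a7 and Pdk2 added from outside the 34 genes. Slc16a3 fills 28.2 to 48.6% of the lactate transporter bar and Pdk3 52.8 to 69.8% of the PDH kinase bar in CCR2-RFP libraries, while Pfkm fills 86.3% of the phosphofructokinase bar in CX3CR1-GFP 2A.

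Glucose-6-phosphate isomerase, Gpi1, was 17.2, 19.1 and 17.0 TPM in double-negative, 37.1, 36.6 and 43.3 in CCR2-RFP and 15.3, 30.6 and 16.6 in CX3CR1-GFP libraries. CCR2-RFP libraries were above all others (log2 fold change against double-negative 1.09, SE 0.231, adjusted p = 0.00586). Against CCR2-RFP cells, CX3CR1-GFP cells were lower by -0.94 (SE 0.231, adjusted p = 0.0134), a call lost without CCR2-RFP 2B (adjusted p = 0.0543), after rescaling (-0.64, 0.0705) and with quantile normalization (-0.61, 0.0813).

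Phosphofructokinase commits sugar to glycolysis, and of its 3 subunit genes only Pfkp was called with all libraries. Pfkp, the platelet form (chromosome 13, 6579768 to 6648777), was 2.90, 2.59 and 1.86 TPM in double-negative, 12.3, 11.3 and 15.2 in CCR2-RFP and 2.97, 3.22 and 2.53 in CX3CR1-GFP libraries. All CCR2-RFP libraries were far above the other 6. The difference was 2.02 on the log2 scale (SE 0.196, adjusted p = 4.1e-05) from double-negative cells, and CX3CR1-GFP cells were lower than CCR2-RFP cells by -1.83 (SE 0.196, adjusted p = 8.9e-05). Pitrm1, which overlaps Pfkp on the opposite strand by 748 bases, was 1.72 to 2.74 TPM in 8 libraries and 18.2 TPM in CX3CR1-GFP 2A, where Pfkp was not raised. Pfkl, the liver form, was 0.894, 0.672 and 0.924, then 1.93, 0.433 and 1.27, then 1.09, 0.212 and 0.560 TPM, and passed in no comparison.

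Pfkm, the muscle form, was highest in sort 2A of both MHCII+ populations, with 1.53, 1.45 and 3.20 TPM in double-negative, 0.392, 8.53 and 0.430 in CCR2-RFP and 1.18, 21.6 and 1.66 in CX3CR1-GFP libraries. It did not pass in any comparison with all libraries (log2 fold change of CCR2-RFP against double-negative -0.15, SE 0.919, adjusted p = 0.936). Without sort 2A it was lower in CCR2-RFP relative to double-negative cells (-1.21, SE 0.312, adjusted p = 0.0325), in libraries with 39.0 and 33.8 against 228 and 241 TPM of muscle markers. The part of muscle RNA in that difference was not tested.

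Aldolase A, Aldoa, which splits fructose-1,6-bisphosphate, was highest in sort 2A of each population. Its level was 45.4, 62.6 and 51.2 TPM in double-negative, 74.0, 159 and 77.9 in CCR2-RFP and 44.2, 199 and 46.6 in CX3CR1-GFP libraries. Every CCR2-RFP library was above every double-negative one, but the spread within CX3CR1-GFP and CCR2-RFP cells was wide and the difference did not pass (log2 fold change 0.87, SE 0.513, adjusted p = 0.266). It passed without sort 2A (0.65, SE 0.167, adjusted p = 0.0333), also without CX3CR1-GFP 2A alone (0.87, SE 0.272, adjusted p = 0.0398). CX3CR1-GFP cells were then lower than CCR2-RFP cells by -0.73 without sort 2A (SE 0.167, adjusted p = 0.0204) and by -1.08 without CX3CR1-GFP 2A (adjusted p = 0.0287), while with all libraries the value was -0.38 (adjusted p = 0.635). Aldoc, the brain form, was 0.0495, 0.0886 and 0 TPM in double-negative, 0.890, 0.596 and 0.388 in CCR2-RFP and 0.443, 0 and 0.147 in CX3CR1-GFP libraries.

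The later part of glycolysis, from triosephosphate to pyruvate, was higher in CCR2-RFP relative to double-negative cells at each of its tested steps. Tpi1, triosephosphate isomerase, was 9.19, 8.88 and 11.03 TPM in double-negative, 19.3, 27.3 and 17.7 in CCR2-RFP and 7.44, 16.7 and 7.16 in CX3CR1-GFP libraries. Gapdh, which makes the NADH of glycolysis, was 65.2, 52.3 and 52.5 TPM in double-negative, 131, 149 and 129 in CCR2-RFP and 46.6, 103 and 41.8 in CX3CR1-GFP libraries. For both, the 3 CCR2-RFP libraries were above the other 6 and CX3CR1-GFP 2A stood above the rest of its group. Log2 fold changes in CCR2-RFP against double-negative cells were 1.05 for Tpi1 (SE 0.293, adjusted p = 0.0248) and 1.26 for Gapdh (SE 0.286, adjusted p = 0.00874), and without sort 2A 0.81 (adjusted p = 0.0305) and 1.14 (adjusted p = 0.00421). The Tpi1 call was lost without double-negative 1 (0.0728), double-negative 2A (0.0777), CCR2-RFP 1 (0.0521) or CCR2-RFP 2A (0.0913), after rescaling (0.0686), with quantile normalization (0.0597) and without a filter (0.0779). Gapdh is widely used as a reference gene, and its level differed between these populations by a ratio of 2.40.

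Pgk1, phosphoglycerate kinase, the first ATP-yielding step, was 6.96, 5.005 and 5.95 TPM in double-negative, 17.0, 15.2 and 19.2 in CCR2-RFP and 6.14, 7.41 and 5.31 in CX3CR1-GFP libraries. Pgam1, phosphoglycerate mutase, was 7.88, 6.52 and 8.61, then 24.3, 24.04 and 34.3, then 8.33, 5.40 and 7.60 TPM. Eno1, enolase 1 (chromosome 4, 150236721 to 150248879), was 30.4, 25.5 and 26.2, then 69.8, 70.3 and 67.3, then 17.4, 13.5 and 20.6 TPM. These 3 genes did not stand out in CX3CR1-GFP 2A, and CCR2-RFP libraries were above all others for each. The log2 fold changes against double-negative cells were 1.38 for Pgk1 (SE 0.184, adjusted p = 0.000323), 1.71 for Pgam1 (SE 0.208, adjusted p = 0.000181) and 1.31 for Eno1 (SE 0.164, adjusted p = 0.000222). For Eno1 the CX3CR1-GFP libraries were also all below the double-negative ones. That difference of -0.66 (SE 0.164) did not pass over all genes (adjusted p = 0.0717), and did without CX3CR1-GFP 2B (-0.79, adjusted p = 0.0388). Eno2, the neuronal enolase, was at most 0.257 TPM in any library.

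Pkm, pyruvate kinase, which yields the second ATP, was 27.0, 35.4 and 26.1 TPM in double-negative, 56.7, 77.6 and 72.7 in CCR2-RFP and 21.8, 62.3 and 18.7 in CX3CR1-GFP libraries. CX3CR1-GFP 2A lay within the range of the CCR2-RFP libraries. The log2 fold change against double-negative cells was 1.20 (SE 0.371, adjusted p = 0.0392), and it was lost without any 1 of the 6 libraries compared (adjusted p = 0.0588 to 0.113), after rescaling (0.0886), with quantile normalization (0.105) and without a filter (0.125). Without CX3CR1-GFP 2A it was 1.20 with SE 0.175 and adjusted p = 0.000862, and without sort 2A 1.24 (SE 0.197, adjusted p = 0.0044). Gene levels do not separate the M1 and M2 splice forms of Pkm.

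The 16 members from hexokinase to pyruvate kinase summed to 232, 229 and 214 TPM in double-negative libraries, 461, 600 and 494 in CCR2-RFP and 187, 476 and 178 in CX3CR1-GFP libraries. The sum in CX3CR1-GFP 2A fell within the CCR2-RFP range, with the 1390 TPM of muscle markers beside it, and the other two CX3CR1-GFP libraries were below all double-negative ones. Muscle isoforms in the list of other glycolysis genes were high in the same libraries. Eno3, muscle enolase, was 16.9 TPM in CCR2-RFP 2A and 24.1 in CX3CR1-GFP 2A against 0.729 to 8.92 in the 7 others, and Pgam2, muscle phosphoglycerate mutase, was 8.11 and 15.0 against 0 to 4.04. These muscle genes, with Pitrm1, were picked after their values were seen.

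**Figure D3:**
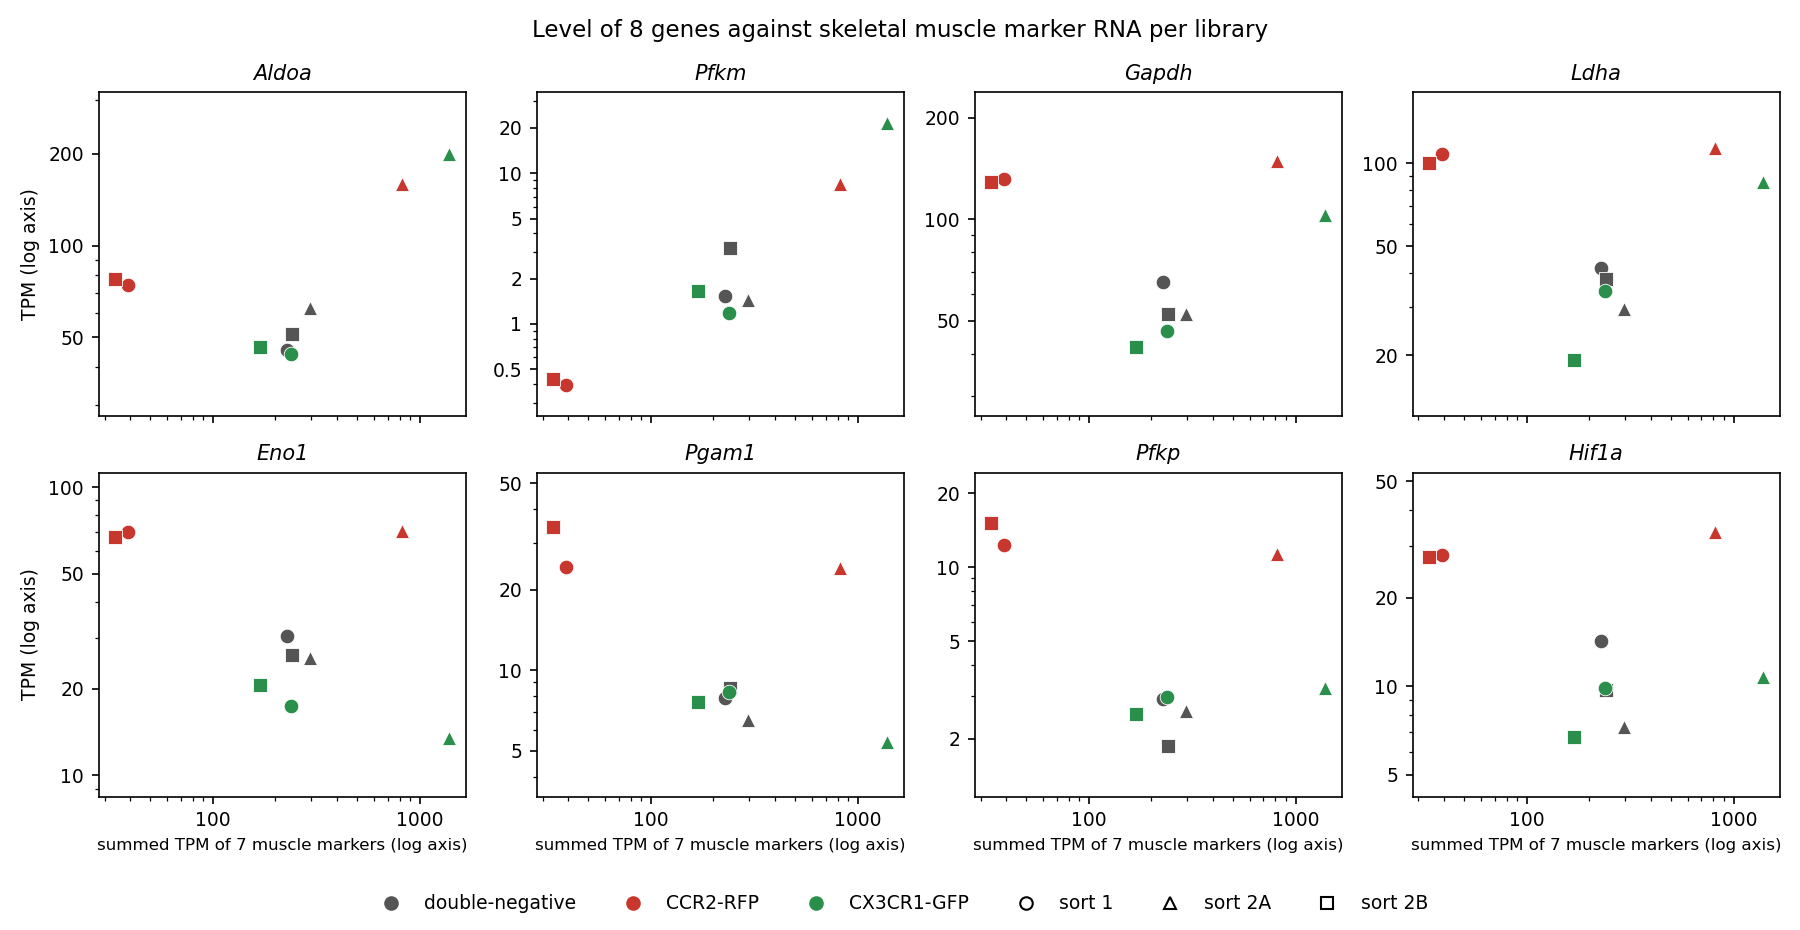
TPM of 8 members (vertical axes, log scale) against the summed TPM of the 7 skeletal muscle markers (horizontal axis, log scale), 1 point per library, coloured by population and shaped by sort label. The sort 2A libraries of CCR2-RFP (818 TPM) and CX3CR1-GFP (1390 TPM) lie at the right and are high for Aldoa and Pfkm. For Eno1, Pgam1, Pfkp and Hif1a the 3 CCR2-RFP libraries (marker sums 39.0, 818 and 33.8 TPM) lie above all others. The part of muscle RNA in these levels was not tested.

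The remaining genes of the list, 18 in number with 11 tested, showed no common direction. In CCR2-RFP against double-negative cells 1 was higher and 2 were lower (median log2 fold change -0.14 against 0.09 for all genes), in CX3CR1-GFP against double-negative cells none was called, and in CX3CR1-GFP against CCR2-RFP cells 2 were higher and 2 lower. Minpp1, a phosphatase that also acts on 2,3-bisphosphoglycerate, was 4.05 against 1.94 TPM (0.79, SE 0.224, adjusted p = 0.0263). Galm, galactose mutarotase, was 0.307 against 1.33 TPM (-0.82, SE 0.234, adjusted p = 0.0277), and Pgm2l1, glucose-1,6-bisphosphate synthase, was 2.53 against 4.33 TPM (-0.59, SE 0.184, adjusted p = 0.0411). All 3 differed the opposite way in CX3CR1-GFP against CCR2-RFP cells, and Pgm1, phosphoglucomutase, was lower there as well (3.07 against 6.10 TPM, -0.82, SE 0.260, adjusted p = 0.041).

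Of the lactate genes, Ldha and Slc16a3 were higher in CCR2-RFP cells. Ldha (chromosome 7, 46841475 to 46855627), which favours conversion of pyruvate to lactate, was 41.7, 29.6 and 37.9 TPM in double-negative, 108, 114 and 101 in CCR2-RFP and 34.4, 85.7 and 19.2 in CX3CR1-GFP libraries. All CCR2-RFP libraries were above the 6 others, and CX3CR1-GFP 2A was again the highest of its group. Ldha was higher in CCR2-RFP relative to double-negative cells by 1.55 (SE 0.411, adjusted p = 0.0192), and lower in CX3CR1-GFP than in CCR2-RFP cells by -1.45 (SE 0.411, adjusted p = 0.0254). Without CX3CR1-GFP 2A the SE fell to 0.215 for the first comparison, with the same fold and adjusted p = 0.000611. The first call was lost without double-negative 2A (0.0690) or 2B (0.0506), CCR2-RFP 1 (0.0549), CCR2-RFP 2A (0.0564) or CCR2-RFP 2B (0.0512), and without a filter (0.0732). Without the whole of sort 2A it held (1.37, SE 0.263, adjusted p = 0.00996).

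Ldhb, the form that favours pyruvate, was 0.672, 0.323 and 0.279 TPM in double-negative, 0.213, 2.57 and 0.0453 in CCR2-RFP and 6.43, 3.22 and 0.484 in CX3CR1-GFP libraries. The groups overlapped and it passed in no comparison with all libraries, the nearest being CX3CR1-GFP against CCR2-RFP cells at 1.12 (SE 0.582, adjusted p = 0.189). It passed there without CX3CR1-GFP 2B (1.76, adjusted p = 0.0309). Ldha made up 84.2% of the lactate dehydrogenase sum in CX3CR1-GFP 1 and 96.4% or more in the other 8 libraries.

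The exporter Slc16a3, MCT4 (chromosome 11, 120948480 to 120960868), had the largest difference on the log2(TPM + 1) scale among the members tested, while the ratio of means was larger for Slc2a1. Its level was 0.199, 1.06 and 0.427 TPM in double-negative, 8.18, 6.45 and 7.79 in CCR2-RFP and 0.869, 1.30 and 0.759 in CX3CR1-GFP libraries. The 3 CCR2-RFP libraries were well above the 6 others (2.47, SE 0.240, adjusted p = 4.1e-05, ratio of means 13.3). CX3CR1-GFP cells were lower than CCR2-RFP cells by -2.10 (SE 0.240, adjusted p = 0.000139), and their difference from double-negative cells did not pass (0.37, SE 0.240, adjusted p = 0.525). Slc16a1, MCT1, which carries lactate both ways, was 4.04, 1.55 and 1.40, then 0.832, 1.61 and 2.33, then 1.66, 1.99 and 1.09 TPM and passed in no comparison. Slc16a7, the high-affinity transporter MCT2, is outside the 34 genes and was named after its values were seen. Its levels were 30.4, 26.2 and 51.6 TPM in double-negative, 19.99, 12.4 and 5.91 in CCR2-RFP and 49.7, 13.98 and 55.03 in CX3CR1-GFP libraries. Its CCR2-RFP libraries were all below the double-negative ones, but the difference did not pass (-1.51, SE 0.529, adjusted p = 0.0632). Of the 3 transporters' sum, Slc16a3 made up 0.575, 3.67 and 0.800% in double-negative, 28.2, 31.6 and 48.6% in CCR2-RFP and 1.67, 7.53 and 1.34% in CX3CR1-GFP libraries, and the CCR2-RFP shares overlapped neither of the others. Slc16a7 made up 36.9 to 68.9% in CCR2-RFP and 80.96 to 96.7% in the other libraries. Without sort 2A, Slc16a3 was above 1 TPM in 2 libraries only and was not tested.

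Among 18 other lactate and pyruvate genes, 13 of them tested, 3 were higher and 0 lower in CCR2-RFP against double-negative cells (median 0.32), 0 were called in CX3CR1-GFP against double-negative cells (range -0.16 to 0.55), and 1 was lower in CX3CR1-GFP against CCR2-RFP cells. Emb, embigin, a membrane protein that escorts monocarboxylate transporters, was 44.0, 48.3 and 44.8 TPM in CCR2-RFP libraries against 2.93, 1.66 and 4.73 in double-negative and 1.91, 3.35 and 6.59 in CX3CR1-GFP libraries. Its libraries did not overlap (3.58, SE 0.352, adjusted p = 4.4e-05). Bsg, basigin, the other escort, was 17.0 to 25.7 TPM in all 9 libraries. Mpc1, a subunit of the mitochondrial pyruvate carrier, was 21.5 against 9.46 TPM (1.11, SE 0.237, adjusted p = 0.00607), and Pdhb, a subunit of pyruvate dehydrogenase, was 14.2 against 8.79 TPM (0.64, SE 0.204, adjusted p = 0.044). Bsg was named after its values were seen.

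Pfkfb3 ran opposite to most of the pathway. It encodes the enzyme that makes fructose-2,6-bisphosphate, the strongest activator of phosphofructokinase, and lies at chromosome 2, 11471433 to 11554077. Its level was 33.3, 14.3 and 25.5 TPM in double-negative, 6.23, 6.41 and 7.79 in CCR2-RFP and 16.4, 10.8 and 15.8 in CX3CR1-GFP libraries. The 3 CCR2-RFP libraries were the lowest of all 9, and the double-negative and CX3CR1-GFP libraries overlapped. It was lower in CCR2-RFP relative to double-negative cells by -1.63 (SE 0.282, adjusted p = 0.00179) and higher in CX3CR1-GFP than in CCR2-RFP cells by 0.96 (SE 0.282, adjusted p = 0.0305). The second call was lost without CCR2-RFP 1 (0.0882), CCR2-RFP 2A (0.0786), CCR2-RFP 2B (0.0546), CX3CR1-GFP 1 (0.0909) or CX3CR1-GFP 2B (0.0823), and held without sort 2A (1.10, adjusted p = 0.0119).

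Pfkfb4, a related enzyme, was 3.11, 3.38 and 3.45, then 2.00, 3.81 and 2.03, then 4.99, 3.55 and 6.03 TPM. Between CX3CR1-GFP and CCR2-RFP cells it was at 0.71 (SE 0.244, adjusted p = 0.056). It was higher there without CCR2-RFP 2A (0.93, adjusted p = 0.0215), without CX3CR1-GFP 2A (0.88, adjusted p = 0.0294) and without sort 2A (1.10, adjusted p = 0.018). Immediate-early genes, which respond within minutes to tissue handling, are given beside Pfkfb3. Of 8 tested, 3 were lower in CCR2-RFP relative to double-negative cells (Jun, Fosb and Egr1), with sums over the 8 of 1641 to 2326 TPM against 2397 to 2738. In CX3CR1-GFP libraries they summed to 2683 to 3490 TPM, 4 of 8 were higher than in CCR2-RFP cells and 0 were called against double-negative cells, with all 8 log2 fold changes there above 0 where that of Pfkfb3 was -0.67. Their part in the Pfkfb3 difference was not tested.

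**Figure D4:**
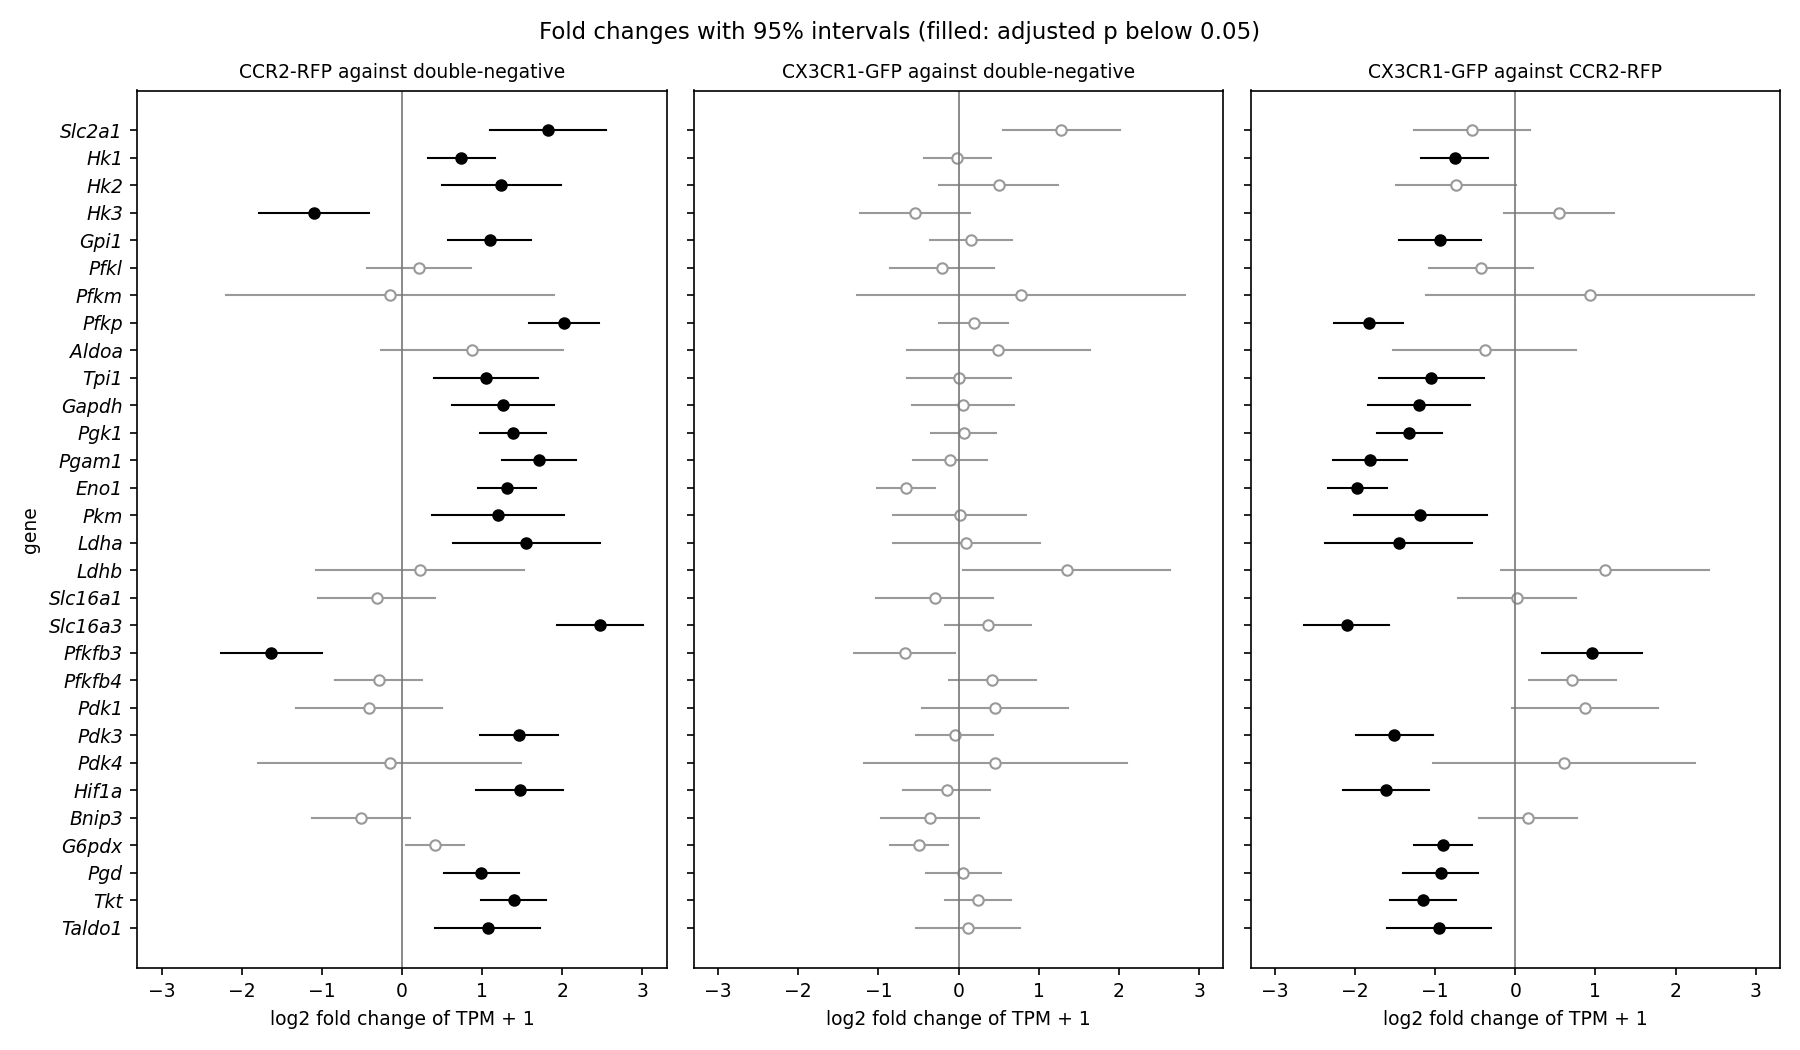
Log2 fold change of TPM + 1 (horizontal axis) with its 95% interval from limma for the 30 members tested (vertical axis, pathway order), in a panel for each comparison. Filled points passed at an adjusted p below 0.05. CCR2-RFP cells differ from double-negative cells in 20 members and CX3CR1-GFP cells from double-negative cells in 0, and Hk3 and Pfkfb3 point the other way from the rest of the called genes.

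Pyruvate dehydrogenase kinases keep pyruvate out of the mitochondrial oxidation step. Pdk3 was 1.88, 1.77 and 3.13 TPM in double-negative, 6.95, 7.67 and 8.93 in CCR2-RFP and 2.24, 1.71 and 2.41 in CX3CR1-GFP libraries. All CCR2-RFP libraries were above the other 6 (1.46, SE 0.216, adjusted p = 0.00067 against double-negative, and -1.51, SE 0.216, adjusted p = 0.000598 for CX3CR1-GFP against CCR2-RFP). Pdk1, a HIF-1 target, was 6.01, 1.86 and 1.36, then 1.94, 1.25 and 2.01, then 3.74, 6.47 and 2.42 TPM and passed in no comparison. Pdk4, which is abundant in muscle, was 0.397, 2.46 and 1.15, then 0.175, 3.24 and 0.520, then 0.513, 9.70 and 0.662 TPM, with the highest value of each population in sort 2A, and it passed in no comparison. With Pdk2 (0.960 to 2.36 TPM, not a member and not called) added, Pdk3 made up 69.3, 52.8 and 69.8% of the 4 kinases' sum in CCR2-RFP libraries, against 19.0 to 45.2% in double-negative and 8.53 to 36.0% in CX3CR1-GFP libraries.

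Hif1a (chromosome 12, 73901375 to 73947530) was 14.2, 7.29 and 9.74 TPM in double-negative, 28.0, 33.4 and 27.6 in CCR2-RFP and 9.91, 10.8 and 6.74 in CX3CR1-GFP libraries. The CCR2-RFP libraries were above all others (1.47, SE 0.242, adjusted p = 0.00136), and CX3CR1-GFP cells were lower than CCR2-RFP cells by -1.61 (SE 0.242, adjusted p = 0.00078). HIF-1α activity is set largely by protein stability, which RNA does not show. Bnip3, a mitophagy receptor and HIF-1 target, was 6.85, 5.58 and 7.76 TPM in double-negative, 3.56, 4.26 and 5.55 in CCR2-RFP and 3.85, 8.22 and 3.84 in CX3CR1-GFP libraries. Its CCR2-RFP libraries were all below the double-negative ones, but the difference did not pass (-0.51, SE 0.275, adjusted p = 0.223). Egln3, an oxygen-sensing hydroxylase and HIF-1 target, was at most 0.448 TPM in any library and was listed at 0 in all CX3CR1-GFP libraries.

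Among 21 other HIF pathway and hypoxia-response genes, 15 of them tested, 2 were higher and 0 lower in CCR2-RFP against double-negative cells. That is 13.3% higher, near the 14.9% of all genes. Their median of 0.19 stood beside 0.09 for all genes. Ankrd37, a HIF-1 target, was 4.79, 3.64 and 3.59 TPM in CCR2-RFP libraries and 0 to 0.353 in the 6 others (2.15, SE 0.210, adjusted p = 4.2e-05), without overlap. Egln1, the main HIF hydroxylase, was 8.32, 12.7 and 9.59 against 6.62, 3.40 and 2.71 TPM (1.15, SE 0.307, adjusted p = 0.0201). None was called in CX3CR1-GFP against double-negative cells (range -0.75 to 1.55). In CX3CR1-GFP against CCR2-RFP cells Ankrd37 and Egln1 were lower and Mxi1, a MAX-binding repressor, was higher (5.595 against 3.06 TPM, 0.73, SE 0.227, adjusted p = 0.039). Vegfa and Adm, both HIF-1 targets named after their values were seen, were at most 1.86 and 0.556 TPM in any library.

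Of the 4 pentose phosphate members, 3 were higher in CCR2-RFP relative to double-negative cells, and the entry enzyme did not pass. G6pdx, glucose-6-phosphate dehydrogenase, the entry enzyme, was 6.87, 6.72 and 7.30 TPM in double-negative, 8.60, 10.7 and 9.55 in CCR2-RFP and 4.54, 4.22 and 5.24 in CX3CR1-GFP libraries. The 3 groups of libraries did not overlap. The difference of CCR2-RFP from double-negative cells (0.41, SE 0.162, adjusted p = 0.0961) and that of CX3CR1-GFP from double-negative cells (-0.49, SE 0.162, adjusted p = 0.168) did not pass, and CX3CR1-GFP against CCR2-RFP did (-0.90, SE 0.162, adjusted p = 0.0023). G6pdx shares its span with Ikbkg on the opposite strand, listed at 1.32 to 3.36 TPM.

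Pgd, 6-phosphogluconate dehydrogenase, the second NADPH step, was 4.30, 4.77 and 4.22 TPM in double-negative, 8.202, 8.43 and 13.3 in CCR2-RFP and 4.87, 3.90 and 5.25 in CX3CR1-GFP libraries (0.99 against double-negative, SE 0.210, adjusted p = 0.00597). Tkt, transketolase, which links the branch back to glycolysis, was 5.36, 6.88 and 4.43, then 14.0, 17.4 and 16.7, then 6.98, 7.13 and 5.95 TPM (1.39, SE 0.185, adjusted p = 0.000323). Taldo1, transaldolase, was 7.84, 8.12 and 5.20, then 11.8, 12.8 and 25.2, then 8.39, 5.78 and 9.02 TPM (1.07, SE 0.293, adjusted p = 0.0227). All 3 had their CCR2-RFP libraries above the 6 others, and CCR2-RFP 2B was the highest for Pgd and Taldo1. The Taldo1 call was lost without that library (0.74, adjusted p = 0.0726), without double-negative 2B (0.89, 0.0861), after rescaling (0.0548), with quantile normalization (0.0627) and without a filter (0.0707).

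All 4 pentose phosphate members were lower in CX3CR1-GFP than in CCR2-RFP cells: Pgd by -0.93 (SE 0.210, adjusted p = 0.00841), Tkt by -1.15 (SE 0.185, adjusted p = 0.0012) and Taldo1 by -0.95 (SE 0.293, adjusted p = 0.0366), beside G6pdx. The Taldo1 call was lost with median-of-ratios scaling (0.0508), rescaling (0.122), quantile normalization (0.121), no filter (0.103), the sort block (0.0508) or only these 2 populations in the fit (0.0589). Without sort 2A the values were -0.78 for G6pdx (adjusted p = 0.0436), -0.92 for Pgd (0.0487) and -1.13 for Tkt (0.0122). The 4 summed to 24.4, 26.5 and 21.2 TPM in double-negative, 42.6, 49.3 and 64.8 in CCR2-RFP and 24.8, 21.0 and 25.5 in CX3CR1-GFP libraries. CX3CR1-GFP 2A, with the most muscle marker RNA, was the lowest of its group, and the part of muscle RNA in these sums was not tested. Of 9 other pentose phosphate genes, 7 tested, 0 were higher and 1 was lower in CCR2-RFP against double-negative cells, and 0 were called in either of the other comparisons. H6pd, which runs the same entry reactions inside the endoplasmic reticulum, was 0.855, 1.30 and 1.32 TPM in CCR2-RFP libraries against 2.59, 4.67 and 3.17 in double-negative ones (-1.03, SE 0.220, adjusted p = 0.00596). Unlike the cytosolic G6pdx, its CCR2-RFP libraries were the lowest of all.

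Genes of glucose synthesis and glycogen, 14 listed and 10 tested, gave 0 calls in CCR2-RFP or CX3CR1-GFP against double-negative cells, and 1 lower gene in CX3CR1-GFP against CCR2-RFP cells. That gene was G6pc3, a glucose-6-phosphatase (2.06 against 5.18 TPM, -1.02, SE 0.216, adjusted p = 0.00602). The most abundant of the list were Gsk3b, glycogen synthase kinase, at 13.7 to 30.8 TPM, and Pygm, muscle glycogen phosphorylase, at 31.5 TPM in CCR2-RFP 2A, 48.9 in CX3CR1-GFP 2A and 0.441 to 4.27 in the 7 others.

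In CX3CR1-GFP against CCR2-RFP cells the glycolytic genes not yet given were lower by -1.05 for Tpi1 (SE 0.293, adjusted p = 0.0246), -1.20 for Gapdh (SE 0.286, adjusted p = 0.0111), -1.32 for Pgk1 (SE 0.184, adjusted p = 0.000492), -1.82 for Pgam1 (SE 0.208, adjusted p = 0.00014), -1.97 for Eno1 (SE 0.164, adjusted p = 2.3e-05) and -1.18 for Pkm (SE 0.371, adjusted p = 0.0393). For Pkm alone among the called members the libraries of the 2 populations overlapped, through CX3CR1-GFP 2A. Of the 30 members tested, called or not, 3 were wholly higher and 17 wholly lower in this comparison. Of all 10136 genes tested, 1446 were wholly higher and 2552 wholly lower. Without sort 2A, 15 members were lower and 2 higher (Pfkfb3 and Pfkfb4), at 12.2% and 6.77% of all genes. Some calls were lost on leaving out 1 library. The Ldha call was lost without any 1 CCR2-RFP library, CX3CR1-GFP 1 or CX3CR1-GFP 2B (adjusted p = 0.0576 to 0.0712), and the Tpi1 call without CCR2-RFP 1, CCR2-RFP 2A, CX3CR1-GFP 1 or CX3CR1-GFP 2B (0.0508 to 0.0861). The Pkm call here was lost without any 1 of the 9 libraries other than CX3CR1-GFP 2A (0.05004 to 0.123). Without CX3CR1-GFP 2A itself, Ldha was at -2.02 (adjusted p = 0.00037), Pkm at -1.71 (0.000311) and Tpi1 at -1.41 (0.00128). The Taldo1 call was lost without double-negative 1, CCR2-RFP 2B, CX3CR1-GFP 1 or CX3CR1-GFP 2A (0.0511 to 0.118), and without sort 2A (-0.92, adjusted p = 0.111).

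Reads can be shared with near-identical sequences, and 11 members have at least 1 other transcript of 95% identity over 300 bases in GENCODE M21. For Pfkp the only match was Pitrm1, over the 748 bases where both genes overlap on opposite strands, and so not a copy. Gapdh had 77 such transcripts, 5 of which were in the table, the highest at 1.31 TPM. The copy of Eno1 in the table, Eno1b, was at most 0.199 TPM. Strand and multi-mapping settings of the counting were not stated in the labels, so members with copies or opposite-strand neighbours carry that uncertainty.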

How the data were processed

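RNA of 9 sorted samples (3 populations, 3 libraries each) was sequenced by the authors as 75-base paired reads. The deposited table holds TPM values that the authors made with Salmon; bcl2fastq 2.18, cutadapt 1.8.3, Salmon 0.11.3 and mm10 are named in the submitters' processing notes. The annotation, strand and multi-mapping settings were not stated there. Read counts cannot be had from TPM, so that sequencing depth is unknown and no counting interval is given. Columns were matched to samples by title, and 24700 of 28764 rows, all 34 members among them, have a GENCODE M21 symbol.

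From these values log2(TPM + 1) was computed for 10136 genes, those reaching 1 TPM in 3 or more of the 9 libraries, which left out Slc2a3, Aldoc, Eno2 and Egln3. limma 3.58.1 (R 4.3.3) fitted 1 mean per population to all 9 libraries with an intensity trend, Benjamini-Hochberg adjustment ran over all genes, and a call needs an adjusted p below 0.05. The script was tested on simulated data. Copies were sought with blastn 2.17.0, and Python 3.11.15, pandas 2.3.3, numpy 2.4.6 and matplotlib 3.10.9 were used for tables and figures.

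The members and gene lists were chosen with earlier results of these data known. All members are named. From each other list up to 4 called genes with the smallest adjusted p in a comparison are named or, with none called, up to 2 with the highest mean. Alternatives changed the pseudocount, filter, scaling, variance model, call rule, libraries in the fit and sort block, and left out each library. Leaving out sort 2A was added after the muscle marker sums were seen. Sort labels were checked as pairs by correlating deviations from the group means. Between libraries of the same sort the values were 0.03 to 0.21, with 1 of 9 such pairs above 0.1. They were thus all above 0, while pairs of different sorts ran from -0.16 to 0.11. The main fit did not take the labels to pair the samples, and the fit with the sort label as a block is given below.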

Additional observations from a re-analysis of the deposited data

How the results depend on the processing

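Of the 20 members called in CCR2-RFP against double-negative cells, 12 kept their call in every alternative run that tested them, 8 lost it in some and 0 reversed. Among the 12, Slc2a1 was not tested with a filter at 5 TPM, and Slc16a3 was not tested without sort 2A. In CX3CR1-GFP against CCR2-RFP cells 9 of 18 kept it in every run that tested them (Slc16a3 again not without sort 2A), 9 lost it in some and 0 reversed. The counts moved as follows, and the cause was not tested. Members lower in CCR2-RFP relative to double-negative cells were 1 without a filter, in place of 2, and 1 to 2 on leaving out 1 library. With a filter at 5 TPM the count was 1, as Hk3 was then not tested. In CX3CR1-GFP against double-negative cells 1 member was higher with a pseudocount of 0.1 and 1 lower with a filter at 5 TPM, and leaving out 1 library gave 0 to 1 in each direction, the 1 without CX3CR1-GFP 2B. Members higher in CX3CR1-GFP than in CCR2-RFP cells were 0 without a filter, 2 with median-of-ratios scaling, 2 after rescaling without Siglece, mitochondrial and ribosomal genes, 2 with quantile normalization, 0 with a required fold of 2, 2 without sort 2A and 0 to 2 on leaving out 1 library. Members lower there were 11 after the same rescaling and 13 to 17 on leaving out 1 library. Members higher in CCR2-RFP relative to double-negative cells were 13 to 19, and members differing among the 3 populations 13 to 21 (13 without CCR2-RFP 2B), on leaving out 1 library. With the sort label as a replicate block, 18 members were higher and 2 lower in CCR2-RFP against double-negative cells, and 1 higher and 16 lower in CX3CR1-GFP against CCR2-RFP cells, where Taldo1 was lost (adjusted p = 0.0508), and it changed no other call. The F test has no value for the fold rule or for fits of only 2 populations. Depth is unknown, which limits members near 1 TPM.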

Other observations

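Genes of the citric acid cycle oxidize the acetyl groups made from pyruvate, and 22 of 23 listed were tested. In CCR2-RFP against double-negative cells 3 were higher and 1 lower (13.6% and 4.55%, beside 14.9% and 9.88% of all genes; median log2 fold change 0.34 beside 0.09), for CX3CR1-GFP against double-negative 0 and 1 (4.55% lower beside 1.61%; median -0.21 beside -0.03), and for CX3CR1-GFP against CCR2-RFP 1 and 8 (4.55% and 36.4%, beside 8.96% and 17.3%; median -0.39 beside -0.11). Mdh2, mitochondrial malate dehydrogenase, was 28.3, 27.7 and 24.1 TPM in CCR2-RFP libraries against 10.8, 8.21 and 9.09 in double-negative ones (1.42, SE 0.161, limma adjusted p = 0.000114). Cs, citrate synthase, was 18.0, 24.8 and 26.4 against 11.5, 9.22 and 9.14 TPM (1.13, SE 0.242, adjusted p = 0.00636). Idh2, the mitochondrial NADPH-forming isocitrate dehydrogenase, was lower at 6.32, 4.29 and 5.15 against 17.6, 16.6 and 12.8 TPM (-1.42, SE 0.190, adjusted p = 0.000345). Me2, mitochondrial malic enzyme, was 15.6, 15.3 and 18.1 TPM in CCR2-RFP, 7.44, 2.89 and 5.79 in double-negative and 1.29, 1.76 and 1.70 in CX3CR1-GFP libraries, with no overlap among the populations. It was lower in CX3CR1-GFP than in double-negative cells by -1.24 (SE 0.267, adjusted p = 0.0385).

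Of 12 sugar-sensing and glycolysis regulators, 10 were tested. In CCR2-RFP against double-negative cells 0 were higher and 1 lower, in CX3CR1-GFP against double-negative cells 0 and 1, and in CX3CR1-GFP against CCR2-RFP cells 1 and 1. Txnip, an arrestin-like protein that restrains glucose uptake and is induced by sugar phosphates, was 131, 136 and 135 TPM in double-negative, 60.0, 55.3 and 56.9 in CCR2-RFP and 86.6, 91.0 and 94.6 in CX3CR1-GFP libraries. Its 3 populations did not overlap and each pair differed: -1.21 for CCR2-RFP against double-negative (SE 0.113, adjusted p = 3.3e-05), -0.56 for CX3CR1-GFP against double-negative (SE 0.113, adjusted p = 0.0288) and 0.65 for CX3CR1-GFP against CCR2-RFP cells (SE 0.113, adjusted p = 0.0019). Mlx, a partner of the sugar-sensing factors that drive Txnip, was lower in CX3CR1-GFP than in CCR2-RFP cells (2.73 against 7.63 TPM, -1.27, SE 0.353, adjusted p = 0.0235).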
